A study of Homo sapiens with 4 samples.

Results

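The 9 genes described here carry out the main steps of MHC class I antigen presentation. They are HLA-B, HLA-C, HLA-E and HLA-F, which encode heavy chains, B2M, which encodes the light chain, TAP1 and TAP2, which encode the peptide transporter, and PSMB8 and PSMB9, which encode subunits of the immunoproteasome. They were taken by symbol from the 62893 Ensembl genes of the deposited count tables. Each symbol matched 1 identifier, and all 9 passed the filter on low counts that left 13767 tested genes.

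Total RNA of the human hepatoma line Hep-G2, all at passage 21, was sequenced. The shFTO group carried the shRNA TRCN0000246247 directed at FTO, an eraser of the N6-methyladenosine mark on RNA. The scramble group carried the control shRNA SHC002. Each group has 2 deposited tables, called run 1 and run 2 here. With 1 shRNA against FTO in 1 cell line, a change that follows FTO and a change particular to that shRNA cannot be told apart.

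Class I molecules show the cell's own peptides to T cells and natural killer cells. Proteasomes cut cytosolic proteins into peptides, and interferon adds the immunoproteasome subunits PSMB8 and PSMB9, which replace the constitutive subunits PSMB5 and PSMB6. The TAP1 and TAP2 proteins together move the peptides into the endoplasmic reticulum, where tapasin and chaperones load them onto a heavy chain bound to beta-2-microglobulin. HLA-B and HLA-C belong to the classical heavy chains, HLA-E shows leader peptides of other class I chains to natural killer cells, and HLA-F is a non-classical chain with a more restricted display. Hepatocytes normally carry low levels of class I molecules that interferon can raise.

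Reads assigned to genes numbered 20220271 and 20706611 in the shFTO runs and 20047409 and 20474554 in the scramble runs. Runs of the same group differed from each other by no more than sampling would give. The chi-square per degree of freedom was 1.01 between the shFTO runs (chi-square test, p = 0.142) and 1.02 between the scramble runs (p = 0.0648), against 118 to 120 between runs of different groups. The runs were therefore pooled and counted as 1 sample per group, so no difference below has a replicate check. All intervals are 95% intervals computed exactly (Clopper-Pearson) from the pooled reads, and they hold counting error alone. FTO itself had 116 and 128 reads in the shFTO runs, against 594 and 550 in the scramble runs. All 10 hepatocyte markers, ALB and APOB among them, were tested, and they summed to between 18722 and 18794 CPM (reads per library size) in the shFTO runs and between 40358 and 40380 CPM in the scramble runs, with 7 of the 10 lower by 1.5-fold or more. The leukocyte genes PTPRC, CD3E and MS4A1 had no read in any of the 4 tables. The 14 leukocyte markers together summed to 237 and 236 CPM in the shFTO runs and to 3009 and 3015 CPM in the scramble runs, nearly all from LYZ. Of the 7 leukocyte markers tested 6 were lower by 1.5-fold or more and 1 was higher. Beside both marker lists, 13.4% of all tested genes were lower by 1.5-fold or more and 11.4% higher by as much. LYZ had 4968 and 5084 reads in the shFTO runs and 56696 and 58080 in the scramble runs. The part of these shifts in the results below was not tested. In bulk RNA, fewer cells of a type and less RNA per cell cannot be told apart.

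The promoters are shown first because they carry letters that class I genes are known for and because HLA-B and HLA-C, alike in much of their promoter, differed in their ratios. RefSeq promoter windows (GRCh38.p14), from 250 bases before the start site to 50 after, were available for 8 of the 9 genes, all but HLA-E. Each line below gives 200 bases on the gene's own strand, 5′ to 3′, ending at the base before the start site. The PSMB8 line is that of its second start site and ends 10 bases after it. Capitals mark 4 motifs searched on both strands. These were the core of the interferon-stimulated response element, ISRE (GAAA, any 2 bases, GAAA), a short site of the cyclic AMP response element, CRE (TGACG), the CCAAT box (ATTGG in the other orientation) and an NF-kB-type site (GGG, any 2 bases, TT, any base, CC). Only the 2 ISRE copies in B2M and in TAP1 overlap.
HLA-B (chr6:31357180-31357379, minus strand): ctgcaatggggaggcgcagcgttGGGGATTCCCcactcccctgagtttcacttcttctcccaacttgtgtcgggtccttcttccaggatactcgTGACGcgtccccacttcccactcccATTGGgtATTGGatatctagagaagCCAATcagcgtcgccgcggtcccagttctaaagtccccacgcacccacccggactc
HLA-C (chr6:31272093-31272292, minus strand): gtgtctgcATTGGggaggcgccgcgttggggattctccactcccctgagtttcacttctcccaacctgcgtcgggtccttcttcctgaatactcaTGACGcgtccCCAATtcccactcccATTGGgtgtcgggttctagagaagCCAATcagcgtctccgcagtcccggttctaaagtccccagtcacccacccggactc
HLA-F (chr6:29723234-29723433, plus strand): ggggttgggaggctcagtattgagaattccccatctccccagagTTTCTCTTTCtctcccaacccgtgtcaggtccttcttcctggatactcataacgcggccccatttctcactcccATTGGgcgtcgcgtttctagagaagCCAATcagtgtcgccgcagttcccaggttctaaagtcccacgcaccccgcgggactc
B2M (chr15:44711317-44711516, plus strand): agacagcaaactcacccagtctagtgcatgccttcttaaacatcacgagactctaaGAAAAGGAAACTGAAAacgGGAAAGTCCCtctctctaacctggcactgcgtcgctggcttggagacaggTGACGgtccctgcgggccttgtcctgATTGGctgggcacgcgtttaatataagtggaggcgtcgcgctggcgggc
TAP1 (chr6:32853705-32853904, minus strand): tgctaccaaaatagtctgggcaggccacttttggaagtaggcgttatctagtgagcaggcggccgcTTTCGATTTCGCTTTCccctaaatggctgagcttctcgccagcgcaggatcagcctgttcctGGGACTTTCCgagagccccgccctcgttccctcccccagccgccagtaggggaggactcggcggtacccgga
TAP2 (chr6:32838740-32838939, minus strand): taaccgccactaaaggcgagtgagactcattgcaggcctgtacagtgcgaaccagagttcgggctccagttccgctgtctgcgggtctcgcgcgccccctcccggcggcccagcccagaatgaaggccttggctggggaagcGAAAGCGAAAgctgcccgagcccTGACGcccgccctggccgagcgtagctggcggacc
PSMB8 (chr6:32844038-32844237, minus strand): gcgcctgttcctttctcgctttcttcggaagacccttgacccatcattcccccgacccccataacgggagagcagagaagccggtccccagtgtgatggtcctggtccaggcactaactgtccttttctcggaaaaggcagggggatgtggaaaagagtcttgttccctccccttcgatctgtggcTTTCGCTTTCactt

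The ISRE-type letters stood in the windows of HLA-F, B2M, TAP1, TAP2 and PSMB8 and in 3.57% of the 35116 RefSeq windows. The B2M window held 2 overlapping copies, from -144 to -129 counted from the start site, and the TAP1 window also 2, from -134 to -119. HLA-B and HLA-C held the CRE letters, from -106 to -102 and from -105 to -101, as did B2M, TAP2, PSMB9 and the first window of PSMB8, and so did 24.6% of all windows. CCAAT letters, present in 34.6% of all windows, occurred 3 times in HLA-B, 4 times in HLA-C and 2 times in HLA-F, and also stood in B2M, TAP1 and PSMB9. NF-kB-type letters, in 5.68% of all windows, were found in HLA-B, from -177 to -168, in B2M and in TAP1. TAP1 and PSMB9 lie head to head with 487 bases between their start sites, so the TAP1 line above belongs to the stretch they share. A match is a description of letters and not of a bound site. Only exact letters were searched, so a gene with no match, such as HLA-B or HLA-C for the ISRE, may hold a variant of the element.

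Class I presentation transcripts differed in both directions. HLA-C and HLA-E, both heavy chains, were lower in shFTO, PSMB8 and PSMB9 were higher, and HLA-B and TAP1 stood at a ratio near 1 under TMM scaling. Plain library size raised every log2 ratio by 0.17 against TMM, and TAP1 was then at 0.16 in place of -0.01. None of the 9 was at least 1.5-fold higher, where 11.4% of tested genes were, and 1 of 9, HLA-E, was at least 1.5-fold lower, where 13.4% were. None was at least 2-fold higher or lower, against 5.18% and 6.19% of tested genes. The median log2 ratio of the 9 was 0.02, against 0.01 over all tested genes. Just inside and outside 1.5-fold, HLA-E was past it and HLA-C was not, but HLA-C also passed without scramble run 1 or without shFTO run 2. With plain library size PSMB8 and PSMB9 were at least 1.5-fold higher and no member was lower by as much. At a threshold of 1.25-fold, chosen after the values were seen, PSMB8 and PSMB9 were past it upward (22.8% of tested genes) and HLA-C and HLA-E downward (24.0%), so the counts lay near the background.

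**Figure D1:**
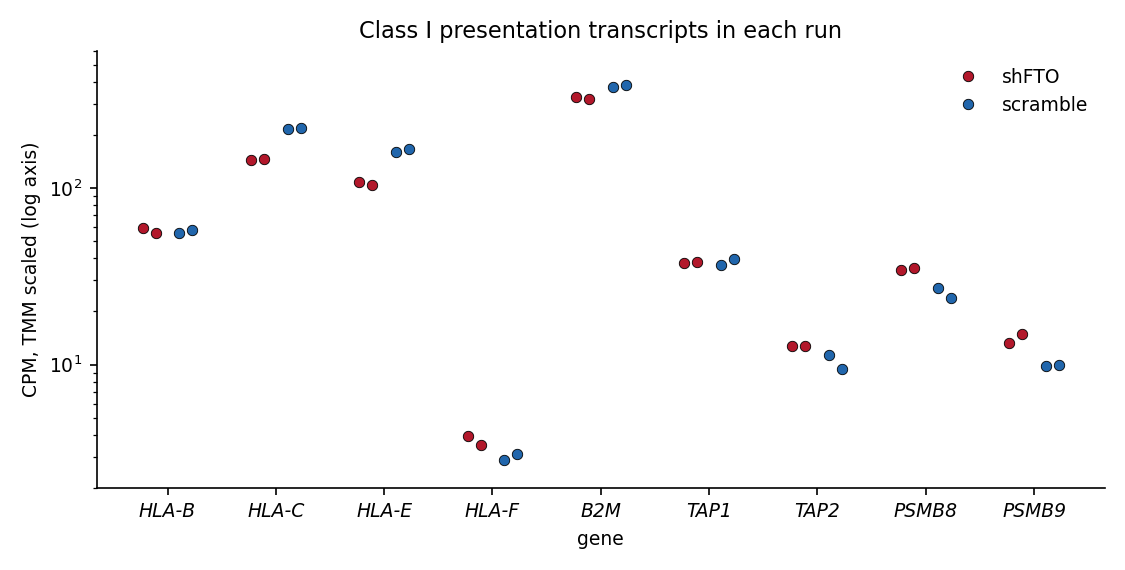
Each point is 1 run, with TMM-scaled CPM on a log axis and the 9 genes along the x axis, shFTO left of scramble. HLA-C and HLA-E sit lower in both shFTO runs, PSMB8 and PSMB9 sit higher, and the runs of HLA-B and TAP1 overlap between the groups.

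HLA-C, the heavy chain best known as a ligand of inhibitory receptors on natural killer cells, had 3095 and 3224 reads in the shFTO runs, or 144.7 and 147 CPM, against 4068 and 4214 reads in the scramble runs, or 215 and 218 CPM. CPM values use library sizes from edgeR's TMM scaling. Both shFTO runs were below both scramble runs, and with the runs pooled HLA-C was 1.49-fold lower in shFTO (1.44 to 1.54), or -0.57 in log2. HLA-E had 2316 and 2288 reads in the shFTO runs, or 108 and 104 CPM, against 3016 and 3228 reads, or 159.6 and 167 CPM, in the scramble runs. The groups did not overlap, and with the runs pooled the gene was 1.54-fold lower (1.48 to 1.60), or -0.62 in log2. Among all tested genes, ranked from the lowest ratio, HLA-E stood at percentile 12.3 and HLA-C at 13.7.

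HLA-B had 1275 and 1223 reads in the shFTO runs, against 1047 and 1120 in the scramble runs. Once scaled, these were 59.6 and 55.8 CPM in shFTO and 55.4 and 58.0 CPM in scramble, so the groups overlapped. Its pooled ratio was 1.02 (0.959 to 1.08), an interval that spans 1. HLA-F was the lowest of the 9, with 84 and 77 reads in the shFTO runs and 54 and 60 in the scramble runs. Both shFTO runs were above both scramble runs, at 3.93 and 3.51 CPM against 2.86 and 3.11 CPM, but the pooled ratio of 1.24 had an interval from 0.973 to 1.60 that includes 1. The difference in HLA-F was thus within counting error under TMM scaling, whereas edgeR called the gene higher with plain library size. Other genes, mostly on the opposite strand, share 28.5% of the HLA-F exon bases and 18.9% of those of HLA-B. The part of these overlaps in the reads was not tested.

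Because HLA-B and HLA-C are close paralogs, their ratio within a library was also read, which needs no scaling of library sizes. HLA-B had 41.2 and 37.9 reads per 100 HLA-C reads in the shFTO runs, against 25.7 and 26.6 in the scramble runs. The ratio was 1.51-fold higher in shFTO (1.41 to 1.62), where the interval is an exact conditional one of the odds ratio. HLA-B made up 18.4% of the reads of the 4 heavy chains in shFTO (17.7 to 19.1) and 12.9% in scramble (12.4 to 13.4). HLA-C made up 46.5% in shFTO (45.7 to 47.4) and 49.3% in scramble (48.5 to 50.04), and HLA-E 33.9% in shFTO (33.1 to 34.7) and 37.2% in scramble (36.4 to 37.9). HLA-F made up 1.19% in shFTO (1.01 to 1.38) and 0.678% in scramble (0.560 to 0.814). The make-up of the heavy chain pool thus differed between the libraries by more than counting error, with a larger HLA-B part in both shFTO runs. These shares and all ratios of 2 genes were chosen after the values were seen. Heavy chain genes are near-identical over long stretches and vary between people, so reads may have been split or lost between them, and their part in these values was not tested. Identifiers with no symbol held 0.750% to 0.752% of the reads in the shFTO runs and 0.656% to 0.659% in the scramble runs, and whether any of them are other haplotype copies of the heavy chain genes was not tested.

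**Figure D2:**
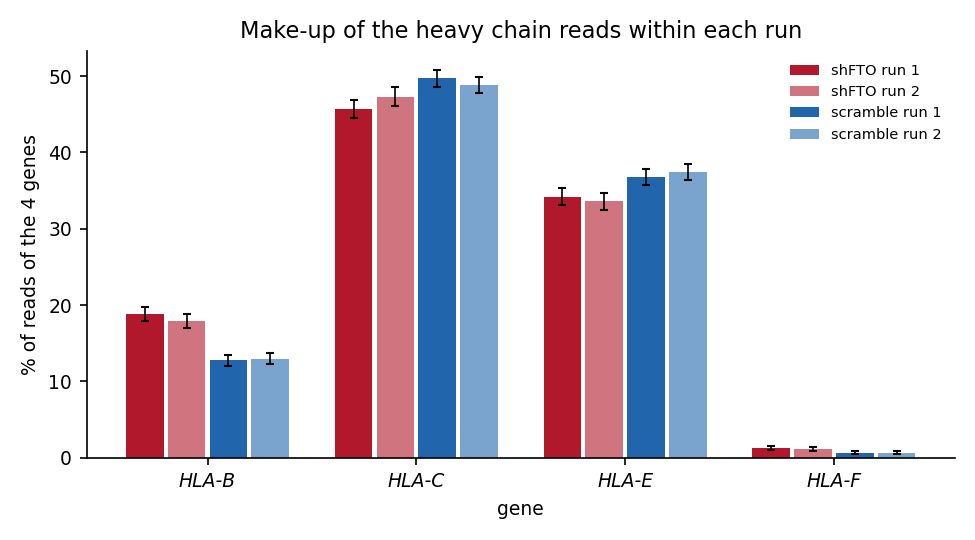
Bars give the percentage of the reads of HLA-B, HLA-C, HLA-E and HLA-F that each gene took within a run, with exact 95% binomial intervals as error bars. The HLA-B bars are 18.8% and 17.95% in the shFTO runs, against 12.8% and 13.0% in the scramble runs.

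B2M, the light chain that pairs with class I heavy chains for display, was the most abundant of the 9. It had 6983 and 6969 reads in the shFTO runs, or 326 and 318 CPM, against 7093 and 7389 reads in the scramble runs, or 375 and 383 CPM. Both shFTO runs were lower, by 1.18-fold when pooled (1.15 to 1.21). The size of this drop depends on the scaling. The log2 ratio of B2M was -0.24 with TMM, -0.19 with upper quartile and -0.068 with plain library size. Under TMM scaling B2M fell less than the summed heavy chains. These came to 313 CPM in shFTO and 440 CPM in scramble, 1.40-fold lower (1.37 to 1.44). Within a library, HLA-E had 33.0 reads per 100 B2M reads in shFTO and 43.1 in scramble, a ratio 1.31-fold lower (1.25 to 1.37), and HLA-C had 45.3 in shFTO and 57.2 in scramble, 1.26-fold lower (1.21 to 1.31). HLA-B went the other way, with 17.9 in shFTO and 15.0 in scramble, 1.20-fold higher (1.12 to 1.27).

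Of the 2 transporter subunits, TAP1 had 809 and 840 reads in the shFTO runs, or 37.8 and 38.3 CPM, against 694 and 767 reads, or 36.7 and 39.7 CPM, in the scramble runs. The groups overlapped and the pooled ratio was 0.995 (0.927 to 1.07). TAP2 had 274 and 280 reads in the shFTO runs, or 12.8 CPM in each, against 215 and 183 reads, or 11.4 and 9.48 CPM, in the scramble runs. Both shFTO runs were above both scramble runs, and TAP2 was 1.23-fold higher (1.08 to 1.40). TAP2 had 33.6 reads per 100 TAP1 reads in shFTO and 27.2 in scramble, 1.23-fold more (1.06 to 1.43). Of the TAP2 exon bases, 32.3% are shared on the same strand with the overlapping gene AL669918.1 in GENCODE v29, and whether reads were lost there was not tested.

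Both immunoproteasome subunits were higher in shFTO. PSMB8, which supplies the chymotrypsin-like activity and replaces PSMB5, had 735 and 771 reads in the shFTO runs, or 34.4 and 35.1 CPM, against 510 and 462 reads, or 27.0 and 23.9 CPM, in the scramble runs. It was 1.37-fold higher (1.26 to 1.48) and stood at percentile 84.0 of the tested genes. PSMB9, which replaces PSMB6, had 285 and 326 reads in the shFTO runs, or 13.3 and 14.9 CPM, against 186 and 193 reads, or 9.85 and 9.997 CPM, in the scramble runs. It was 1.42-fold higher (1.25 to 1.62), at percentile 86.2. For both genes the 2 shFTO runs were above the 2 scramble runs. PSMB9 and TAP1, which share a promoter stretch, did not keep step, since PSMB9 had 37.1 reads per 100 TAP1 reads in shFTO and 25.9 in scramble, 1.43-fold more (1.23 to 1.66). PSMB9 and PSMB8 had a ratio to each other of 40.6 per 100 in shFTO and 39.0 in scramble, 1.04-fold (0.892 to 1.21), an interval that includes 1. Of the PSMB8 exon bases, 20.6% are overlapped by the antisense transcript PSMB8-AS1, which had 5 and 8 reads in the shFTO runs and 4 and 3 in the scramble runs. PSMB8 and PSMB9 also share 139 exon bases on opposite strands, and the part of this overlap in their reads was not tested.

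**Figure D3:**
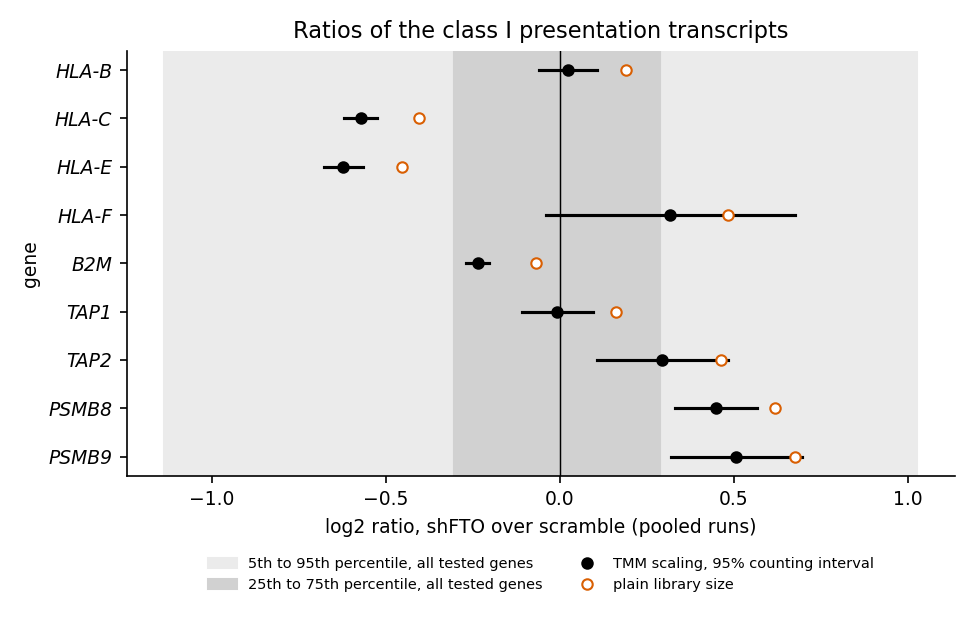
Filled points are log2 ratios of shFTO over scramble from pooled runs under TMM scaling with 95% counting intervals, open points the same with plain library size, and grey bands the spread of all 13767 tested genes. HLA-C and HLA-E lie left of 0 and PSMB8 and PSMB9 right of it under both scalings, whereas HLA-B and TAP1 leave 0 with plain library size.

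Against the subunits they replace, PSMB8 and PSMB9 were higher still in shFTO. PSMB5 was at 324 CPM in shFTO and 573 CPM in scramble, 1.77-fold lower (1.73 to 1.81), and PSMB6 was at 113 CPM in shFTO and 127 CPM in scramble, 1.13-fold lower (1.08 to 1.17). The log2 ratio of PSMB6, -0.17, is about the size of the shift with plain library size, whereas the ratios of 2 genes within a library need no scaling. PSMB8 had 10.6 and 10.8 reads per 100 PSMB5 reads in the shFTO runs, against 4.71 and 4.18 in the scramble runs, a ratio 2.42-fold higher (2.22 to 2.63). PSMB9 had 11.7 and 13.2 reads per 100 PSMB6 reads in the shFTO runs and 7.82 and 7.78 in the scramble runs, 1.60-fold higher (1.40 to 1.84). The remaining immunoproteasome subunit, PSMB10, was scarce, with 38 and 48 reads in the shFTO runs and 30 and 44 in the scramble runs. Its ratio to PSMB7, the subunit it replaces, was 1.25-fold higher with an interval from 0.905 to 1.73 that includes 1, and its runs overlapped between the groups.

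**Figure D4:**
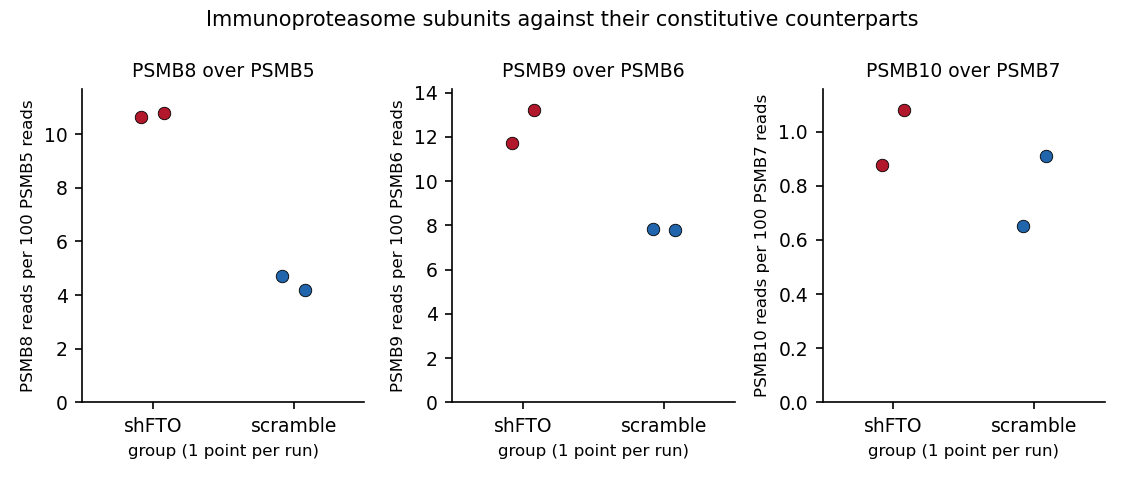
Points give, for each run, the reads of an immunoproteasome subunit per 100 reads of the constitutive subunit it replaces, on axes that start at 0. PSMB8 over PSMB5 and PSMB9 over PSMB6 are higher in both shFTO runs, and the PSMB10 points overlap.

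Per length, the order of the 9 transcripts was much the same in both groups. Levels were set per kilobase of the longest principal transcript and scaled to the same total over all genes (TPM), a scale on which the groups are not compared here because it is not TMM scaled. In shFTO, B2M led with 493 and 480 TPM, followed by HLA-C with 243 and 247, HLA-E with 107 and 103, HLA-B with 99.2 and 92.9, PSMB8 with 78.7 and 80.6, PSMB9 with 43.9 and 49.0, TAP1 with 32.9 and 33.4, TAP2 with 13.2 in both runs and HLA-F with 6.19 and 5.54. In scramble, B2M had 491 and 501 TPM, HLA-C 313 and 317, HLA-E 137 and 143, HLA-B 79.9 and 83.7, PSMB8 53.5 and 47.5, TAP2 10.2 and 8.47 and HLA-F 3.90 and 4.24. TAP1, with 27.7 and 30.0 TPM, and PSMB9, with 28.1 and 28.5, overlapped in scramble, whereas PSMB9 was above TAP1 in both shFTO runs. No other neighbours in either order overlapped between runs.

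With edgeR (quasi-likelihood, Benjamini-Hochberg adjusted p over all 13767 genes), 3 of the 9 were called higher (TAP2, PSMB8 and PSMB9), 3 lower (HLA-C, HLA-E and B2M), and 3 did not pass. Over all tested genes 33.2% were called higher and 33.4% lower, 66.6% either way, so the members' count was that of the background. Since the runs differ by sampling alone, a call sets these libraries against each other rather than the conditions. With plain library size edgeR called 6711 genes higher and 3041 lower, and 6 of the 9 members higher, as HLA-B, HLA-F and TAP1 then passed. The call of TAP2 was lost without scramble run 2. Without regard to size, 4 of the 9 genes had both shFTO runs above both scramble runs (41.4% of tested genes) and 3 had both below (40.2%).

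Genes that work beside the 9 were also mixed. Of 8 genes for peptide loading and trimming none was past 1.5-fold, with a median log2 ratio of -0.13 against 0.01 over all tested genes. TAPBP, which encodes tapasin, the bridge between the transporter and the heavy chain, was at 98.6 CPM in shFTO and 69.7 CPM in scramble, 1.41-fold higher (1.35 to 1.48). PDIA3, the disulphide isomerase of the loading complex, was at 618 CPM in shFTO and 917 CPM in scramble, 1.48-fold lower (1.46 to 1.51), and calreticulin, CALR, was 1.24-fold lower (1.23 to 1.25). ERAP1, which trims peptides in the endoplasmic reticulum, was at 53.6 CPM in shFTO and 58.1 CPM in scramble. The proteasome activator subunits PSME1 and PSME2 were 1.35-fold lower (1.32 to 1.39) and 1.11-fold lower (1.07 to 1.14), whereas the subunits of other activators, PSME3 and PSME4, were 1.26-fold higher (1.23 to 1.29) and 1.09-fold higher (1.06 to 1.13). The log2 ratio of PSME2, -0.15, is smaller than the shift of 0.17 with plain library size, which turns its direction. Of 13 tested genes of the constitutive core proteasome 1, PSMB5, was past 1.5-fold, and the median log2 ratio was -0.17. Of 7 peptidase genes 1 was past 1.5-fold, the aminopeptidase gene NPEPPS, 1.78-fold lower (1.70 to 1.87).

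Of 16 transcription factor genes of the class I promoters and their relatives, edgeR called 8 higher and 4 lower in these libraries, beside 33.2% and 33.4% of all tested genes, and none was at least 1.5-fold higher. NLRC5, the main transactivator of class I promoters, had 123 and 132 reads in the shFTO runs and 75 and 85 in the scramble runs, 1.40-fold higher (1.15 to 1.72). IRF1 was 1.46-fold higher (1.29 to 1.64), and RFX5, which binds the promoters with NLRC5, was 1.14-fold higher (1.06 to 1.22). Its partners in the same complex were lower or near 1, RFXAP 1.22-fold lower (1.06 to 1.39) and RFXANK at a ratio of 0.922 (0.847 to 1.004). The median log2 ratio of the list was 0.13, and 1 of the 16 was at least 1.5-fold lower, the scarce IRF9, named after its values were seen.

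Interferon receptors and their signalling genes included JAK1, the kinase shared by the interferon receptors, at 131 CPM in shFTO and 64.0 CPM in scramble, 2.04-fold higher (1.95 to 2.14). JAK2, which acts with JAK1 at the interferon gamma receptor, was 1.71-fold higher (1.41 to 2.08), and SOCS1, a feedback inhibitor of these kinases, was 2.03-fold lower (1.77 to 2.33). SOCS3, a scarcer relative of SOCS1 named after its values were seen, was 4.396-fold lower (3.26 to 6.01). JAK1, JAK2, SOCS1 and SOCS3 were the 4 of 10 genes past 1.5-fold. That is 2 higher and 2 lower, beside 11.4% and 13.4% of all tested genes. Of 26 tested interferon target genes, 9 were higher by 1.5-fold or more and 4 lower by as much, beside 11.4% and 13.4% of all tested genes, and a median log2 ratio of 0.26, which was 0.15 without shFTO run 2 and 0.37 without scramble run 2. MX1, an antiviral GTPase gene, was 1.88-fold higher (1.58 to 2.26), PARP9 1.81-fold higher (1.60 to 2.04), its partner DTX3L 1.77-fold higher (1.60 to 1.97) and the nuclear body gene SP100 1.53-fold higher (1.38 to 1.69). These had a mean of at least 5 CPM. The 3 targets more than 2-fold higher were scarcer and are named after their values were seen. GBP1 had 63 and 51 reads in the shFTO runs and 7 and 4 in the scramble runs, 9.14-fold higher (4.92 to 18.8), GBP3 was 5.92-fold higher (2.66 to 15.5) and IFI27 5.99-fold higher (2.33 to 19.6). The exonuclease gene ISG20 was 3.88-fold lower (3.13 to 4.83), the membrane protein gene IFITM2 1.96-fold lower (1.82 to 2.11), IFI6 1.83-fold lower (1.59 to 2.105) and the GTPase gene GBP2 1.59-fold lower (1.38 to 1.82). Of 7 genes for surface turnover of class I molecules 1 was past 1.5-fold, the ubiquitin ligase gene SYVN1, 1.75-fold lower (1.64 to 1.86).

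**Figure D5:**
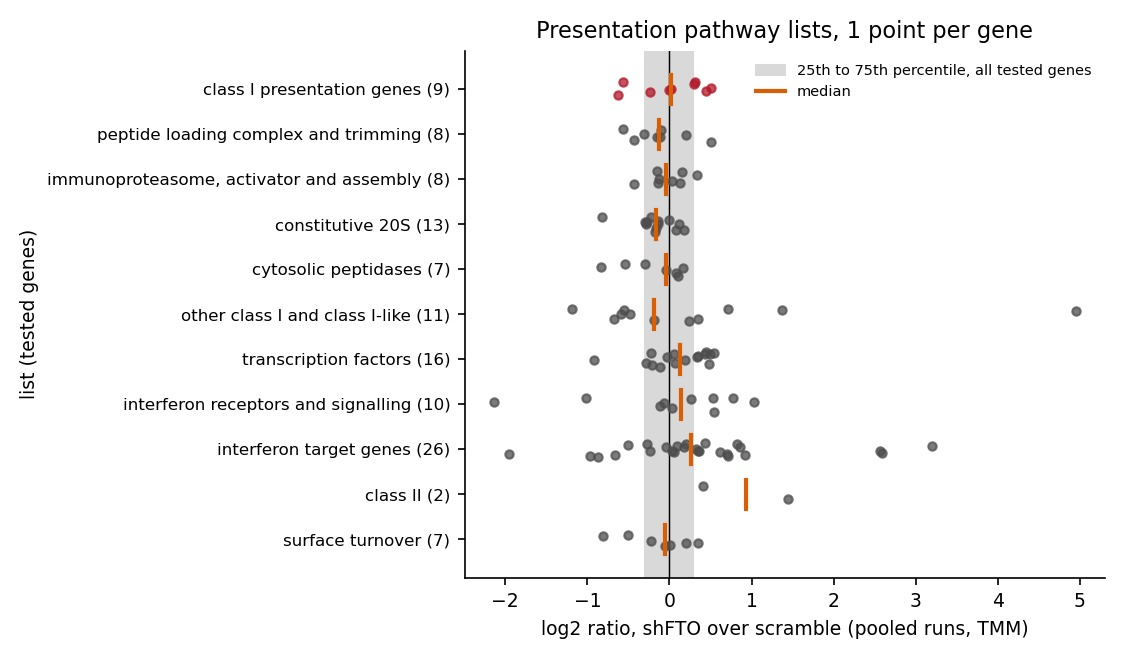
Each point is a tested gene, with the log2 ratio of shFTO over scramble on the x axis, the lists down the page, list medians in orange and the range between the 25th and 75th percentile of all tested genes in grey. Every list has genes on both sides of 0 except class II, with 2 tested genes.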

How the data were processed

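The authors deposited 4 tables, 1 per run, of unnormalized whole-number counts of reads for each Ensembl identifier. The processing notes of the submitters name HTSeq 0.6.0, TopHat2 2.1.1 and the build hg19. The annotation release, read length, strand setting and treatment of multiply mapped reads are not given in the sources used here, so reads of overlapping, antisense or near-identical genes cannot be told apart. Groups come from the sample titles, and nothing in the labels says that the 2 tables of a group came from separate cultures.

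Symbols were matched by Ensembl identifier for 51226 of 62893 genes, and transcript lengths and exon overlap come from GENCODE v29 (GRCh38). Runs were compared by chi-square over genes with at least 20 reads, then pooled. Folds are ratios of pooled CPM with TMM library sizes. Tests used edgeR 4.0.16 (R 4.3.3) with filterByExpr, and DESeq2 1.42.0 as an alternative, at an adjusted p of 0.05. The edgeR test was checked on simulated counts with sampling noise alone and with some genes raised. That check does not cover variation between separate cultures. The members and the pathway lists were chosen with earlier results of these data known. Genes named beside the members were those at least 1.5-fold changed with a mean of at least 5 CPM, at most 4 per list and direction, and a fixed set of direct partners. Of 129 listed pathway genes 128 were matched. Alternatives covered scaling, filters, the test, the replicate block, leaving out each run and transcript length.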

Additional observations from a re-analysis of the deposited data

How the results depend on the processing

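HLA-C, HLA-E and B2M stayed lower and HLA-F, TAP2, PSMB8 and PSMB9 higher under all 9 alternatives of scaling, filter and left-out run. Plain library size moved the median log2 ratio of all tested genes to 0.18, against 0.01 with TMM, a shift of 0.17. With it 2 members were at least 1.5-fold higher in place of 0 and 0 lower in place of 1, edgeR called 6 members higher in place of 3 and 3041 of all tested genes lower in place of 4594, and 24 pathway genes were at least 1.5-fold higher in place of 15. Upper quartile scaling left 0 members at least 1.5-fold lower. A threshold of 1.25-fold gave 2 higher and 2 lower. With no filter 24 pathway genes were at least 1.5-fold and 15 at least 2-fold higher, in place of 15 and 7, and with a mean of at least 1 CPM 4 were at least 2-fold higher. Leaving out each run gave 1 to 2 members at least 1.5-fold lower, with 2 without scramble run 1 or shFTO run 2, as HLA-C then passed as well. The log2 ratio of TAP1 was 0.16 with plain library size, 0.039 with upper quartile, and -0.069 to 0.048 when each run was left out (0.0028 without shFTO run 1), and that of HLA-B -0.024 to 0.067 (-0.016 without scramble run 1, -0.024 without shFTO run 1). Medians changed sign with plain library size for peptide loading (0.035), immunoproteasome and activator (0.12), constitutive core (0.0021), peptidases (0.13) and turnover (0.11), with upper quartile for immunoproteasome and activator (0.00076) and peptidases (0.0053), and on leaving out runs for immunoproteasome and activator (-0.15 to 0.0039, positive without scramble run 2). The causes were not tested. The call of TAP2 was lost with no filter, with DESeq2 and without scramble run 2.

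With the replicate number as a block edgeR called 4606 genes higher and 4610 lower, against 4576 and 4594 without it, and the calls of the 9 members were the same. The deviations of same-numbered runs from their group means had a correlation of -0.0085 over 11225 genes, so the numbers do not pair the runs. The ratio of PSMB8 to PSMB5 ranged from 2.28 to 2.57 and that of PSMB9 to PSMB6 from 1.505 to 1.695 when each run was left out. With the union of exons as length, 35 of 36 member pairs kept their order of level in scramble. Adding reads of haplotype copies was not run, because the tables used here pair each member symbol with 1 identifier and give 11667 identifiers no symbol. Reads of the heavy chain genes may therefore lie on identifiers not counted here. Depth limits the scarce genes, HLA-F and PSMB10 among them.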

Other observations

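Class I-like genes outside the 9 differed in both directions. Of 11 tested, 3 were higher by 1.5-fold or more and 3 lower by as much, beside 11.4% and 13.4% of all tested genes. MR1, which presents microbial vitamin B metabolites to mucosal-associated invariant T cells, had 501 and 510 reads in the shFTO runs and 185 and 160 in the scramble runs, 2.58-fold higher (2.28 to 2.93). FCGRT, the heavy chain of the neonatal Fc receptor, which recycles albumin and IgG and also pairs with beta-2-microglobulin, had 1438 and 1436 reads in the shFTO runs and 2804 and 2954 in the scramble runs, 2.27-fold lower (2.17 to 2.38). AZGP1, a secreted protein with a class I fold, was 1.60-fold lower (1.504 to 1.70). ULBP3, a ligand of the activating receptor NKG2D chosen here after its values were seen, had 32 and 38 reads in the shFTO runs and 1 and 1 in the scramble runs. The more abundant NKG2D ligands MICA and MICB went the other way, and edgeR called both lower in these libraries. MICA had 384 and 342 reads in the shFTO runs and 455 and 488 in the scramble runs, 1.47-fold lower (1.34 to 1.63). MICB was 1.14-fold lower. The scarce ULBP1 had 15 and 11 reads in the shFTO runs and 8 and 6 in the scramble runs, and was not called.

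Most class II genes had few reads or none. HLA-DRA, HLA-DPA1 and HLA-DPB1 had no read in any of the 4 tables, which allows up to 3 reads per table, or 0.137 to 0.159 CPM. Of the 13 class II genes 2 were tested. CD74, the invariant chain, had 1287 and 1348 reads in the shFTO runs and 855 and 893 in the scramble runs, 1.33-fold higher (1.25 to 1.41). CTSS, a protease that trims it, had 88 and 91 reads in the shFTO runs and 34 and 24 in the scramble runs, 2.72-fold higher (2.01 to 3.72).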
